A study of Mus musculus with 15 samples.

Results

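RNA of female mouse kidney proximal tubule cells that lacked Diet1 (KO) was compared with RNA of female wild-type (WT) cells, in 4 libraries of each. Every autosomal gene with enough counts entered the comparison, 13399 of the 24421 genes listed for the 15 libraries of the whole series. The cells were primary cultures from the kidneys of C57BL/6 mice, passaged once before RNA was taken. The KO mice were Diet1-/- and the WT mice Diet1+/+, and their ages were not given in the sources used here. For each group, cells of 3 to 4 mice had been combined into a pool, and the pool had been split into 4 technical replicates, so each side of the comparison is a single pool. With 1 pool on each side, a p-value reflects how far libraries split from the same pool differ. It takes no account of how mice or cultures vary. The male WT (4 libraries) and male KO (3 libraries) pools were made in the same way, and their genotype effect enters only the last comparison. All 15 libraries share 1 fit, so the male libraries also bear on the filter, scaling and spread behind the female calls.

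The proximal tubule reclaims most of the glucose, phosphate, amino acids and protein that the glomerulus filters. It does so with sodium-coupled carriers in its brush border and with the endocytic receptors megalin and cubilin. In culture, tubule cells are known to lose much of this equipment, to re-enter the cell cycle and to lay down matrix, a state that shares genes with the repair of an injured tubule. Diet1, also named Malrd1, encodes a large protein of intestine and kidney that is known for its part in the control of bile acid synthesis.

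The labelled cell type was set against defining markers. Of 10 proximal tubule markers, 7 had enough counts to be tested, and the other 3, the phosphate carrier Slc34a1, the glucose carrier Slc5a2 and the peptidase Dpep1, had at most 6 counts in any of the 8 libraries. The megalin gene Lrp2 was at 19.5 ± 1.43 to 12.1 ± 0.857 CPM, WT to KO, and the cubilin gene Cubn at 5.95 ± 0.221 to 6.0 ± 1.19 CPM. CPM here means counts in 1000000 after scaling of the libraries, and ± gives the SD over 4 libraries. Aquaporin 1 (Aqp1) and the hepatocyte nuclear factor gene Hnf4a were at most at 1.80 CPM in any library. Markers of other kidney cells were present too: the podocyte gene Podxl was at 111 ± 4.26 to 138 ± 7.20 CPM, and the fibroblast collagen gene Col1a1 at 1947 ± 85.2 to 1414 ± 61.4 CPM. Aqp2 of the collecting duct, Slc4a1 and Slc26a4 of intercalated cells, Cd3e of lymphocytes and Hbb-bs of red cells had at most 2 counts in a library.

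Depth ran from 17648416 to 24884801 counts per library over the 8 libraries, at which 3 counts correspond to 0.119 to 0.171 CPM. Libraries of the same pool had correlations of log2 CPM of at least 0.994, and those of different pools of at most 0.990. The KO libraries differed among themselves by more than the WT libraries did. A chi-square statistic per gene, which is about 1 for pure counting error, was 1.55 to 2.47 for the 6 pairs of WT libraries and 1.85 to 5.51 for the 6 pairs of KO libraries. Both pairs above 4 set KO library 1 against KO libraries 3 and 4. KO library 1 had higher values than the other KO libraries for short transcripts (median log2 difference 0.07 in the shortest of 5 length classes) and lower values for long ones (-0.08 in the longest class). Results were therefore also computed without it. The targeted gene itself was not analysed here, so the genotype labels were not checked against it.

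Female KO cells differed from WT cells at 5278 autosomal genes, 2814 of them higher (21.0% of the genes tested) and 2464 lower (18.4%; edgeR's quasi-likelihood test, with p below 0.05 after Benjamini-Hochberg adjustment). Most of the differences were small. Of the called genes, 51.9% (2741) differed by less than 1.2-fold, and only 134 rose and 140 fell by at least 2-fold. In 2633 genes (19.7%) all 4 KO libraries lay above all 4 WT libraries, and in 2227 genes (16.6%) all lay below. Among the called genes that differed by less than 1.2-fold, 1253 of the higher and 921 of the lower ones had no such overlap. The median size of a log2 fold change over all tested genes, called or not, was 0.14.

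The share of called genes and their direction both went with the level of expression. Genes were put into 10 classes of equal number by mean CPM. In the lowest class, 15.2% were called, with 104 higher and 100 lower. In the highest class 62.8% were called, with 596 higher and 245 lower. Abundant genes are measured more precisely: the median standard error of a log2 fold change was 0.34 in the lowest class and 0.029 in the highest. Of the 500 most abundant genes, 274 rose and 89 fell. Called genes lay on every autosome, from 33.8% of the tested genes on chromosome 17 to 43.2% on chromosome 15. Scaling by library size alone, in place of the trimmed mean of M values (TMM), turned the balance round, with 40.4% of called genes higher against 53.3%. That scaling lowered the median log2 fold change of all genes by 0.04, so shifts of that size depend on the scaling.

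**Figure D1:**
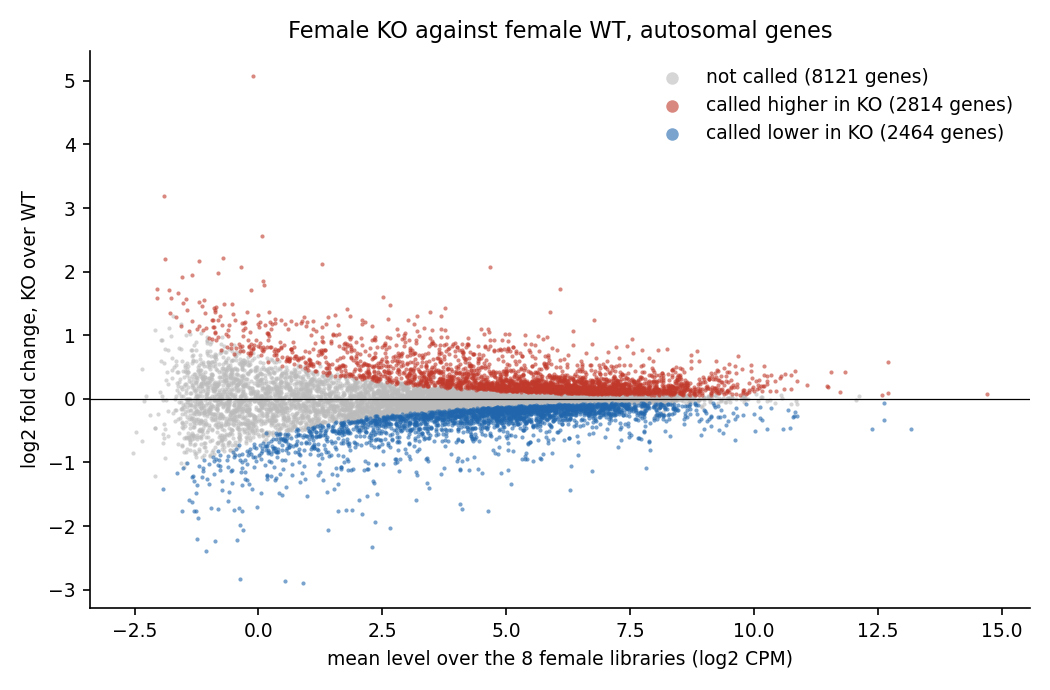
Log2 fold change of female KO over female WT (y axis) against the mean level in log2 CPM over the 8 libraries (x axis) for 13399 autosomal genes, with genes called higher (2814) and lower (2464) in colour. The called genes reach closer to zero at the right, where the level is high, and the largest fold changes lie at low and middle levels.

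The genes with the strongest rise, beyond the adhesion molecule Vcam1 and the gelatinase Mmp9, came from several families. Hmga2, a chromatin protein of embryonic and growing tissue, was at 61.5, 57.8, 68.5 and 73.1 CPM in WT libraries 1 to 4 and 157, 154, 154 and 149.9 CPM in KO libraries 1 to 4. It was the most abundant of the 20 strongest increases at 5 CPM or more. These were chosen among called genes without overlap of WT and KO libraries, so a lack of overlap is no separate result for them. The log2 fold change of Hmga2 was 1.23 ± 0.053 (± its standard error, as for every log2 fold change below; edgeR adjusted p = 1.63e-13). E2f7, a repressor that is made late in the cell cycle, rose by 1.24 ± 0.098 on the log2 scale, and Espl1, the protease separase that frees sister chromatids, by 1.12 ± 0.089. Troap, a spindle protein, rose by 1.14 ± 0.12. Csf2, the growth factor of granulocytes and macrophages, rose from 2.64 ± 0.515 to 6.21 ± 0.253 CPM. Traf1, a signalling adaptor of tumour necrosis factor receptors, rose by 1.26 ± 0.12, Tll1, a protease that trims procollagen, by 1.31 ± 0.090, and Serpinb2, an inhibitor of plasminogen activators, by 1.17 ± 0.13.

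Among the strongest decreases was Adamts16, a secreted matrix protease of the kidney, at 120.1, 120.1, 108 and 108 CPM in WT libraries 1 to 4 and 44.0, 43.1, 38.8 and 43.3 CPM in KO libraries 1 to 4. All 4 KO libraries lay below all 4 WT libraries, as the choice of the strongest decreases required, and the log2 fold change was -1.43 ± 0.044 (edgeR adjusted p = 4.93e-23). Pcsk5, a convertase that activates secreted precursors, fell by 1.65 ± 0.083 on the log2 scale, and Fras1, an extracellular protein that anchors epithelia during kidney development, fell by 1.40 ± 0.11. Erbb4, a receptor for neuregulins, fell from 6.19 ± 0.586 to 2.01 ± 0.657 CPM. The hormone gene Fgf21 fell from 7.72 ± 0.853 to 2.74 ± 0.442 CPM, and the chemokine gene Cxcl14 from 13.7 ± 0.959 to 4.55 ± 0.850 CPM. Thbs2, a matrix protein that restrains vessel growth, fell from 49.3 ± 3.52 to 19.4 ± 2.05 CPM. The phosphate carrier Slc34a2 fell by 1.32 ± 0.17 and Veph1, a membrane-associated adaptor, by 1.53 ± 0.13.

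Most cell division genes rose. The counts of each list are read beside the 21.0% of all tested genes that rose and the 18.4% that fell. A cell first licenses its replication origins with the MCM helicase, then makes nucleotides and copies its DNA. It then builds a spindle, on which kinases such as Plk1 and Aurka act and from which the anaphase-promoting complex releases it. Of 39 genes of licensing and the replication fork, 31 rose and 0 fell (median log2 fold change 0.44, against 0.0022 over all tested genes). The helicase subunit Mcm5 rose by 0.75 ± 0.053 and Mcm6 by 0.44 ± 0.038, while Mcm7 rose by 0.28 ± 0.036. Mcm10, which starts the fork, rose by 0.96 ± 0.096, and Top2a, the topoisomerase that untangles finished DNA, went from 73.6 ± 2.37 to 121 ± 5.41 CPM. Of 24 genes of nucleotide synthesis, 18 rose and 0 fell. Rrm2, the subunit of ribonucleotide reductase that dividing cells make anew, was at 32.5, 33.7, 33.5 and 33.4 CPM in WT libraries 1 to 4 and 63.6, 67.2, 65.5 and 67.0 CPM in KO libraries 1 to 4. Each KO value was above every WT value, with a log2 fold change of 0.98 ± 0.040 (edgeR adjusted p = 1.07e-19), while its partner Rrm1 rose by 0.69 ± 0.038. Thymidine kinase (Tk1) rose by 0.58 ± 0.088.

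Genes that control entry into the cycle went both ways, 18 higher and 5 lower of 36. Cyclin D1 (Ccnd1), which couples growth signals to the cycle, was the most abundant of those that rose, at 617, 609.6, 654 and 663 CPM in WT libraries 1 to 4 and 967, 984, 1056 and 1033 CPM in KO libraries 1 to 4. The groups did not overlap, and the log2 fold change was 0.67 ± 0.034 (edgeR adjusted p = 5.82e-14). Cyclin D2 (Ccnd2) fell by 0.23 ± 0.031. The brakes Cdkn1c, Cdkn2a and Cdkn2b, which inhibit cyclin-dependent kinases, fell by 0.43 ± 0.058, 0.30 ± 0.052 and 0.22 ± 0.043, and p21 (Cdkn1a) was not called at -0.05 ± 0.024, but called lower with library size as the scaling, with a stricter filter and without KO library 1. The late E2F repressor E2f8 rose by 0.82 ± 0.062 and the mitotic gene activator Mybl2 by 1.01 ± 0.11.

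Mitotic kinase and cyclin genes had the highest median of the 99 lists with at least 10 tested members. Of 38 kinases, cyclins and ubiquitin ligase subunits of mitosis, 34 rose and 0 fell (1 without KO library 2), with a median of 0.79. Of 49 motor, kinetochore and centromere genes 42 rose, and 1, the kinetochore adaptor Zwint, fell by 0.08 ± 0.028 (median of the list 0.70); without WT library 1 or 3 Zwint was not called. Mki67, the proliferation antigen Ki-67, went from 74.8 ± 2.62 to 136 ± 8.76 CPM. The ubiquitin carrier Ube2c, which works with the anaphase-promoting complex, rose by 1.03 ± 0.049, the kinase Melk by 0.97 ± 0.079, and the motor genes Kif14, Kif18b and Kif23 by 1.07 ± 0.093, 1.1 ± 0.072 and 0.92 ± 0.050. Anln, which organises the contractile ring of dividing cells, rose by 0.77 ± 0.042. Of 18 condensin and cohesin genes 9 rose and 2 fell (1 without WT library 1 or KO library 1): the condensin subunits Ncapd2 and Ncapg rose by 0.74 ± 0.047 and 0.75 ± 0.079, and the cohesin regulator Pds5b fell by 0.17 ± 0.045. In the histone list, whose transcripts mostly lack a poly(A) tail and whose copies are nearly identical, 9 of 29 rose and 4 fell, and counts there are uncertain. Without WT library 3 or KO library 2 the number of lower histone genes was 2, and without KO library 4 1.

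Many mitotic genes carry a short element called the cell cycle genes homology region, or CHR, near the start of transcription, and CCAAT boxes upstream of it. The letters TTTGAA of the CHR were looked for on both strands in the RefSeq promoter windows (GRCm38.p6, 250 bases before to 50 bases after a start), of which 10143 tested genes had at least 1. Of 30 mitotic kinase and cyclin genes with a window, 16 held TTTGAA (53.3%), as did 25 of 41 motor and kinetochore genes (61.0%), 6 of 31 replication genes (19.4%) and 13.8% of all tested genes. Over all genes that rose the share was 15.1%, and over all that fell 13.4%. CCAAT was in 73.3% of the mitotic kinase genes, 64.5% of the replication genes and 42.5% of all. The following 120 bases around the start of 3 mitotic genes that rose are shown because each holds the element within 32 bases of the start, 5′ to 3′ on the gene's strand with TTTGAA in capitals.
Plk1, chr7:122159365-122159484, plus strand: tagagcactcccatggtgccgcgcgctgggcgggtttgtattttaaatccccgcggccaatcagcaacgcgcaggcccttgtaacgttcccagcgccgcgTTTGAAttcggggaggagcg
Cdc20, chr4:118437299-118437418, minus strand: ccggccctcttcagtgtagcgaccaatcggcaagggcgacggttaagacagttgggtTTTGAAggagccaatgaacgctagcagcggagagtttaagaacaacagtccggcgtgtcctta
Aurka, chr2:172370521-172370640, minus strand: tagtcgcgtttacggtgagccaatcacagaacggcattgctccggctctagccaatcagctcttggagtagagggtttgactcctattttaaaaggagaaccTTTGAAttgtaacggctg
The 3 genes were chosen for display after their values were seen. Counted from the start of transcription at 0, the element begins at position 30 in Plk1, at -18 in Cdc20 and at 32 in Aurka. Plk1, the polo kinase, was at 19.3, 20.6, 21.5 and 22.3 CPM in WT libraries 1 to 4 and 42.1, 41.0, 44.5 and 41.4 CPM in KO libraries 1 to 4, Cdc20, which activates the anaphase-promoting complex, rose from 18.7 ± 1.17 to 35.5 ± 1.65 CPM, and the spindle kinase gene Aurka from 15.5 ± 0.885 to 27.4 ± 0.973 CPM. A match of 6 letters is a description of the sequence and not a measured binding site.

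DNA repair and chromatin maintenance overlap with replication. Of 55 repair genes 21 rose and 3 fell (6 without KO library 4; median 0.12). The exonuclease gene Exo1 was at 3.95, 4.15, 5.42 and 4.16 CPM in WT libraries 1 to 4 and 10.4, 8.94, 9.79 and 9.0 CPM in KO libraries 1 to 4. Its KO libraries all lay above the WT libraries (log2 fold change 1.11 ± 0.098). Rad54l, a motor of recombination, and Neil3, a glycosylase that removes oxidised bases, rose by 0.84 ± 0.14 and 0.78 ± 0.22, whereas Xrcc4, which joins broken ends, and the translesion polymerase gene Rev3l fell by 0.29 ± 0.084 and 0.20 ± 0.051. Uhrf1, which brings the methyltransferase to copied DNA, rose from 32.3 ± 1.96 to 55.3 ± 3.29 CPM, and that methyltransferase, Dnmt1, by 0.39 ± 0.040. Chromatin modifiers had 21 higher and 16 lower of 105, close to the shares of all tested genes, and the dioxygenase gene Tet1 fell by 0.66 ± 0.20. Of 31 imprinted genes, which are expressed from 1 parental copy, 7 rose and 8 fell. The paternally expressed Peg3 went from 288 ± 10.2 to 181 ± 21.5 CPM, and Mest, also expressed from the paternal copy, from 9.48 ± 0.207 to 12.6 ± 0.712 CPM.

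Cholesterol synthesis rose in most of its steps. Cells build cholesterol from acetyl-CoA through mevalonate, farnesyl diphosphate and lanosterol, and the transcription factor SREBP2 (Srebf2) raises the enzymes when sterols are low. Of 19 enzymes, 16 rose and 1 fell, with a median log2 fold change of 0.39. Hmgcs1, at the entry of the pathway, rose by 0.43 ± 0.038, Mvk by 0.49 ± 0.065, the lanosterol synthase gene Lss by 0.67 ± 0.051 and the demethylase gene Cyp51 by 0.46 ± 0.031. Of the 14 enzymes with a promoter window, 13 held CCAAT (92.9%) against 42.5% of all tested genes. A sterol regulatory element of the form TCACNCCAC was in 1 of them (7.14%), against 1.49% of all, and that stretch of the Hmgcs1 promoter is shown with the element in capitals.
Hmgcs1, chr13:119690157-119690276, plus strand: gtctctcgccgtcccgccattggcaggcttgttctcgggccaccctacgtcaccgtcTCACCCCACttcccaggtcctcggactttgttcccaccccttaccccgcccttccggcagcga
The element begins at position -137, counted from the start of transcription at 0.

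Genes of sterol control and traffic went both ways, with 10 higher and 6 lower of 23 (median 0.05). Insig1, which holds SREBP in the endoplasmic reticulum, rose by 0.61 ± 0.042, and Srebf2 itself by 0.29 ± 0.026. Mylip, a ubiquitin ligase of sterol homeostasis, fell by 0.45 ± 0.058, and Abca1, which loads cholesterol onto apolipoprotein, was at 65.5, 62.4, 60.8 and 58.2 CPM in WT libraries 1 to 4 and 29.2, 31.5, 33.4 and 31.5 CPM in KO libraries 1 to 4. The Abca1 values of the groups did not overlap (log2 fold change -0.97 ± 0.063). In fatty acid synthesis and desaturation 9 of 26 genes rose and 2 fell (1 without WT library 1 or 2 or KO library 2 or 4). Scd1 and Scd2, the desaturases, rose by 0.51 ± 0.031 and 0.32 ± 0.023, the elongase gene Elovl6 by 0.52 ± 0.049 and Acly, which supplies acetyl-CoA, by 0.21 ± 0.025. The fatty acid synthase gene Fasn was not called (0.04 ± 0.027). Fatty acid oxidation had 4 higher and 11 lower of 33 (2 higher without KO library 2), and the peroxisome list 2 higher (1 without WT library 1, 2 or 4 or KO library 2, 3 or 4) and 9 lower of 39. The acyl-CoA dehydrogenase gene Acadsb fell by 0.32 ± 0.049 and the peroxisomal oxidase gene Acox2 by 0.48 ± 0.10. Of 13 bile acid genes with enough counts, 1 rose and 1 fell. They were S1pr2, a receptor for conjugated bile acids (0.26 ± 0.049), and Gpbar1, the membrane bile acid receptor, which went from 5.42 ± 0.557 to 4.21 ± 0.780 CPM. The call of Gpbar1 was lost without WT library 1 or 4 or KO library 1 or 3.

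**Figure D2:**
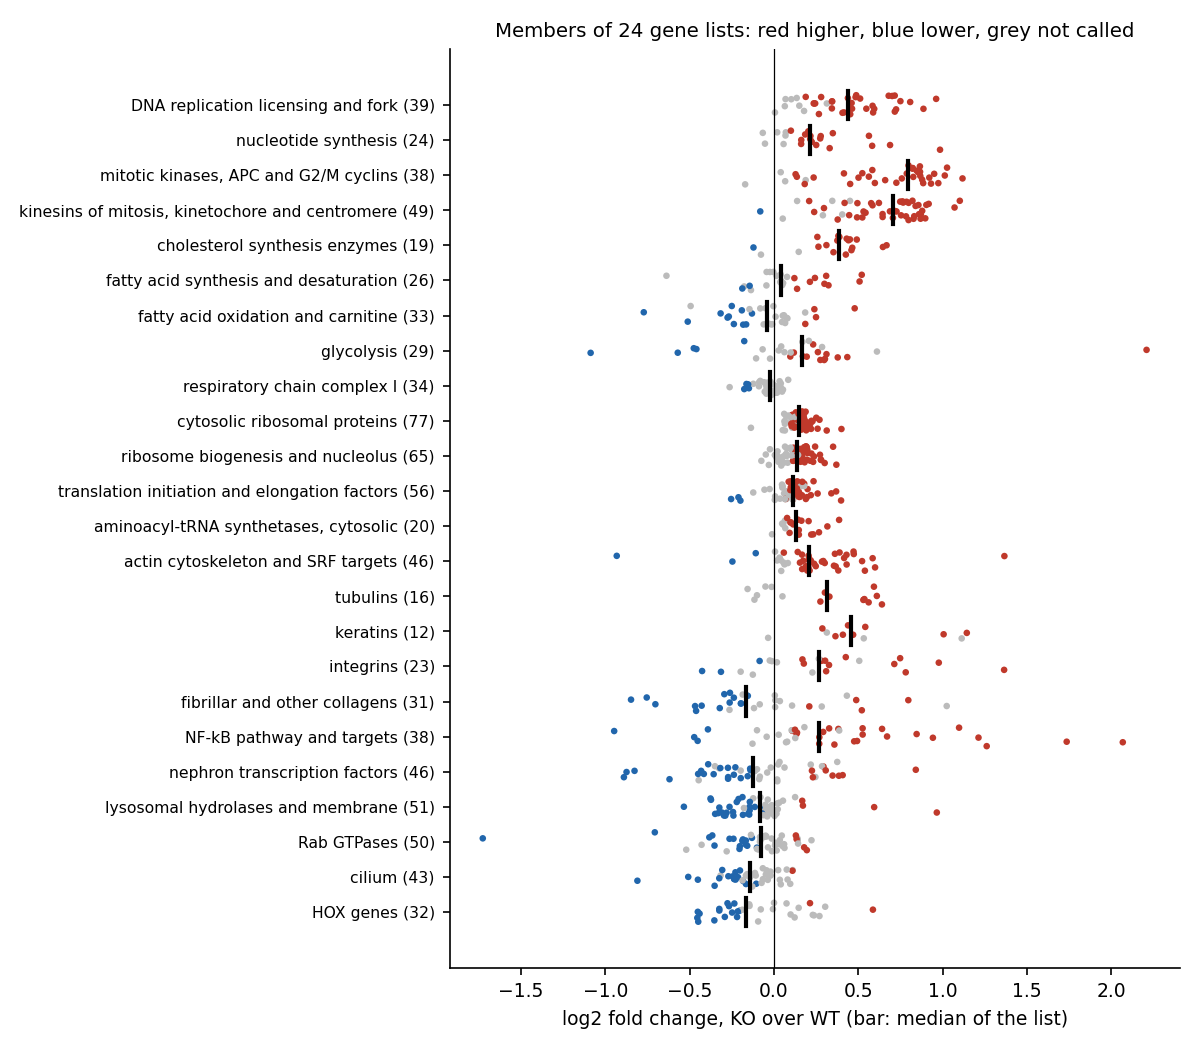
Log2 fold change of female KO over female WT (x axis) for every tested member of 24 gene lists (rows), each point a gene, coloured where called, with a bar at the median of the list. Mitotic lists lie almost wholly to the right of zero, ribosomal and translation lists form narrow bands just right of zero, and cilium, lysosome and HOX lists lie mostly left of it.

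Glycolysis genes went both ways, with 13 higher and 5 lower of 29 (median 0.17). The abundant enzymes pyruvate kinase (Pkm), glyceraldehyde phosphate dehydrogenase (Gapdh) and aldolase A (Aldoa) rose by 0.30 ± 0.025, 0.23 ± 0.029 and 0.19 ± 0.027, and hexokinase 1 (Hk1) by 0.38 ± 0.027. The lactate dehydrogenase chains differed: Ldha, the muscle-type chain, rose by 0.30 ± 0.034, and Ldhb, the heart-type chain that is abundant in kidney, was at 596, 604, 579.8 and 576 CPM in WT libraries 1 to 4 and 422, 395, 448 and 429 CPM in KO libraries 1 to 4. All 4 KO libraries had less Ldhb than any WT library, with a log2 fold change of -0.48 ± 0.036. Most genes of oxidative metabolism were not called, with 0 higher and 4 lower of 34 complex I genes and 7 higher and 6 lower of 29 genes of the citric acid cycle. The citric acid cycle counts lay near the shares of all tested genes and the complex I counts below them. Without WT library 2 or WT library 4, 2 complex I genes were lower. Citrate synthase (Cs) rose by 0.20 ± 0.025. In one-carbon metabolism the mitochondrial serine enzymes Shmt2 and Mthfd1l rose by 0.39 ± 0.034 and 0.43 ± 0.049. The transsulfuration enzymes Cbs and Cth fell by 0.39 ± 0.12 and 0.38 ± 0.061 (13 higher and 7 lower of 27 in that list). Amino acid transporters had 12 higher and 1 lower (2 without WT library 3) of 30, among them the cystine carrier Slc7a11 (0.67 ± 0.11) and the taurine carrier Slc6a6 (0.35 ± 0.033).

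Small shifts in one direction ran through the machinery of protein synthesis. Of 77 cytosolic ribosomal protein genes, 63 rose and 0 fell (1 without WT library 2 or KO library 1), with a median log2 fold change of 0.15, and 60 of those called differed by less than 1.2-fold. Together they took 2.25 ± 0.0430% of counts in WT and 2.45 ± 0.107% in KO. Rpsa, a protein of the small subunit that is also known as the laminin receptor, was at 483, 494, 490.3 and 472 CPM in WT libraries 1 to 4 and 612, 612, 601 and 583 CPM in KO libraries 1 to 4, and its groups did not overlap (log2 fold change 0.31 ± 0.027). These genes have many processed pseudogenes, and their transcripts are short, the class in which KO library 1 read high. Without KO library 1, 53 of them were called higher and 1 lower, and with scaling by library size alone 49 and 1. The count that fell was also 1 with DESeq2 size factors, upper quartile scaling, the stricter filter, the female libraries alone and the replicate block. Of 65 genes of the nucleolus and ribosome assembly, 39 rose and 0 fell (median 0.14). Nucleolin (Ncl) went from 625 ± 16.1 to 758 ± 13.2 CPM, nucleophosmin (Npm1) from 548 ± 9.03 to 617 ± 14.1 CPM and the assembly factor gene Mrto4 from 27.7 ± 1.76 to 35.9 ± 2.05 CPM.

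Translation factors had 34 higher and 3 lower of 56 genes. Eif5a, which helps the ribosome past difficult peptides, went from 527 ± 6.88 to 668 ± 24.2 CPM, and Eif6, which keeps free large subunits apart, rose by 0.40 ± 0.031. Eef1a1, among the most abundant transcripts of these cells, rose by 0.10 ± 0.021. Eif4a2, a helicase that is more abundant in resting than in dividing cells, was the largest decrease in the list, at 287, 271, 294 and 278 CPM in WT libraries 1 to 4 and 239, 229, 240.4 and 239.7 CPM in KO libraries 1 to 4. Its libraries did not overlap, as its choice among the best-resolved shifts under 1.2-fold required, and the log2 fold change was -0.25 ± 0.028. Of 20 cytosolic tRNA synthetases 15 rose and 0 fell, led by Wars (0.39 ± 0.032) and Cars (0.32 ± 0.033). Splicing factors had 29 higher and 4 lower of 65. The proteasome list had 12 higher and 0 lower of 46, but only 7 higher and 1 lower without KO library 1, 7 without WT library 4 and 6 with library size as the scaling. In the mitochondrial ribosome 11 of 77 genes rose and 3 fell, and 5 rose without KO library 1, 6 without KO library 2, 7 without WT library 3 and 3 with library size as the scaling. The count that fell was 1 without WT library 1 or 2 or KO library 3 or 4, and 6 with library size as the scaling. Chaperonins and cytosolic heat shock genes had 26 higher and 11 lower of 75 (7 lower without WT library 3). The abundant Hsp90ab1 rose by 0.18 ± 0.022 and the small heat shock protein gene Hspb1 by 0.52 ± 0.074, and the cochaperone gene Dnajc6 fell by 0.79 ± 0.17.

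The genes with the best-resolved shifts of less than 1.2-fold were chosen by the smallest p among those with no overlap. Map4k4, a kinase that acts on cell adhesion and migration, was at 457, 467, 472 and 471 CPM in WT libraries 1 to 4 and 551, 570.2, 558 and 558 CPM in KO libraries 1 to 4. Its log2 fold change was 0.26 ± 0.025, or 19.8% more (edgeR adjusted p = 2.35e-10). The actin crosslinkers Actn4 and Actn1 rose by 0.24 ± 0.023 and 0.20 ± 0.021, talin (Tln1), which couples integrins to actin, by 0.25 ± 0.024, and Actr3, of the complex that branches filaments, by 0.22 ± 0.025. The kinase Akt1, central to growth factor signalling, rose by 0.24 ± 0.026 and the splicing repressor Ptbp1 by 0.23 ± 0.024. The small shifts downward included Tsc22d1, at 953, 961, 959 and 943 CPM in WT libraries 1 to 4 and 815, 783, 790.1 and 800.5 CPM in KO libraries 1 to 4, a transcription regulator induced by TGF beta, with a log2 fold change of -0.26 ± 0.023. Wls, which carries Wnt proteins to the cell surface, fell by 0.22 ± 0.024 and Wnt7a by 0.24 ± 0.026. The proteins that bind latent TGF beta, Ltbp1 and Ltbp3, fell by 0.25 ± 0.027 and 0.25 ± 0.028, dystroglycan (Dag1), a laminin receptor, by 0.23 ± 0.025 and the laminin chain gene Lamb2 by 0.25 ± 0.029. All 30 genes of this kind kept their direction and their call with library size as the scaling and without KO library 1. As they were chosen for the smallest p, this does not carry over to small shifts in general.

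**Figure D3:**
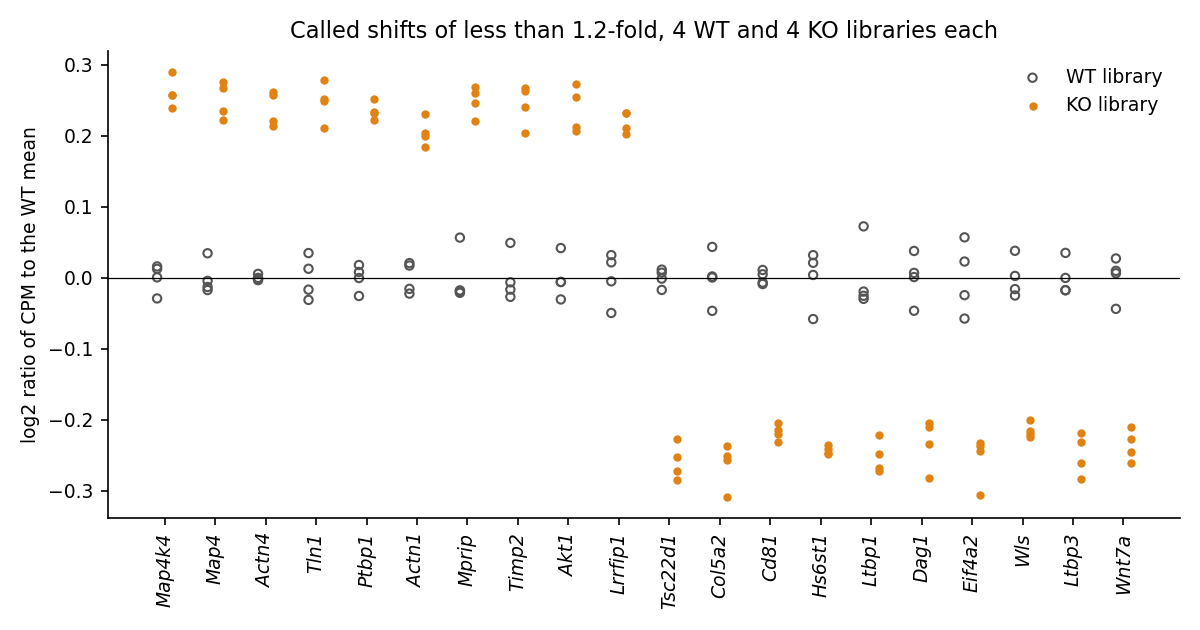
Level of 20 genes with called shifts under 1.2-fold in each of the 8 female libraries, as the log2 ratio to the mean of the WT libraries (y axis), with WT and KO libraries as separate points for each gene (x axis). In each gene the 4 KO points lie wholly above or wholly below the 4 WT points, as the choice of these genes required. The fitted log2 fold changes are at most 0.26 in size.

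The largest differences in CPM lay in abundant genes. Summed over the called genes on the scaled libraries, the higher ones rose by 59168 CPM and the lower ones fell by 34443 CPM. The 15 largest decreases made up 30.3% of that fall. The TMM factors were 1.014 to 1.017 for WT and 0.981 to 0.993 for KO libraries, so scaled CPM sum to more in KO. The balance of the gain and the fall therefore depends on the scaling. Thrombospondin 1 (Thbs1), a matrix protein that activates TGF beta, was at 10739, 10612, 10748 and 10544 CPM in WT libraries 1 to 4 and 7186, 7602, 7884 and 7998 CPM in KO libraries 1 to 4. The groups did not overlap, and the fall of 2993 CPM was the largest of any called autosomal gene (log2 fold change -0.48 ± 0.025, edgeR adjusted p = 7.27e-17). Clusterin (Clu), a secreted chaperone, fell from 7053 ± 256 to 5599.7 ± 78.5 CPM and osteopontin (Spp1) from 6203 ± 102 to 4449 ± 222 CPM. Both belong to the list of tubule injury and repair, in which 25 genes rose and 7 fell of 39 (median 0.29). In that list lipocalin 2 (Lcn2) was not called at 1025 ± 58.7 to 1082 ± 66.5 CPM. The copper oxidase ceruloplasmin (Cp), the lysosomal protease Ctsd and the heparan sulfate protein agrin (Agrn) fell by 1.09 ± 0.048, 0.26 ± 0.023 and 0.27 ± 0.030. The largest gain was in Actb, the gene of beta actin and a common reference gene, at 5242, 5201, 5471 and 5435 CPM in WT libraries 1 to 4 and 7978, 8213, 7994 and 7834 CPM in KO libraries 1 to 4. Every KO library was above every WT library, and the log2 fold change was 0.58 ± 0.023 (edgeR adjusted p = 3.89e-20). The connective tissue growth factor gene Ctgf rose from 2572 ± 98.6 to 3432 ± 177 CPM. Fn1, or fibronectin, the most abundant of the autosomal genes tested, was at 25420.0, 25403, 25583 and 27296 CPM in WT libraries 1 to 4 and 26576, 28534, 26549 and 27464 CPM in KO libraries 1 to 4. Its libraries overlapped, and it was called at 0.07 ± 0.028 (edgeR adjusted p = 0.0346), a difference of 1355 CPM. The Fn1 call was lost with upper quartile scaling, library size scaling, DESeq2, limma-voom, no filter on low counts or a stricter one, and without WT library 1, 2 or 3 or KO library 2 or 4.

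**Figure D4:**
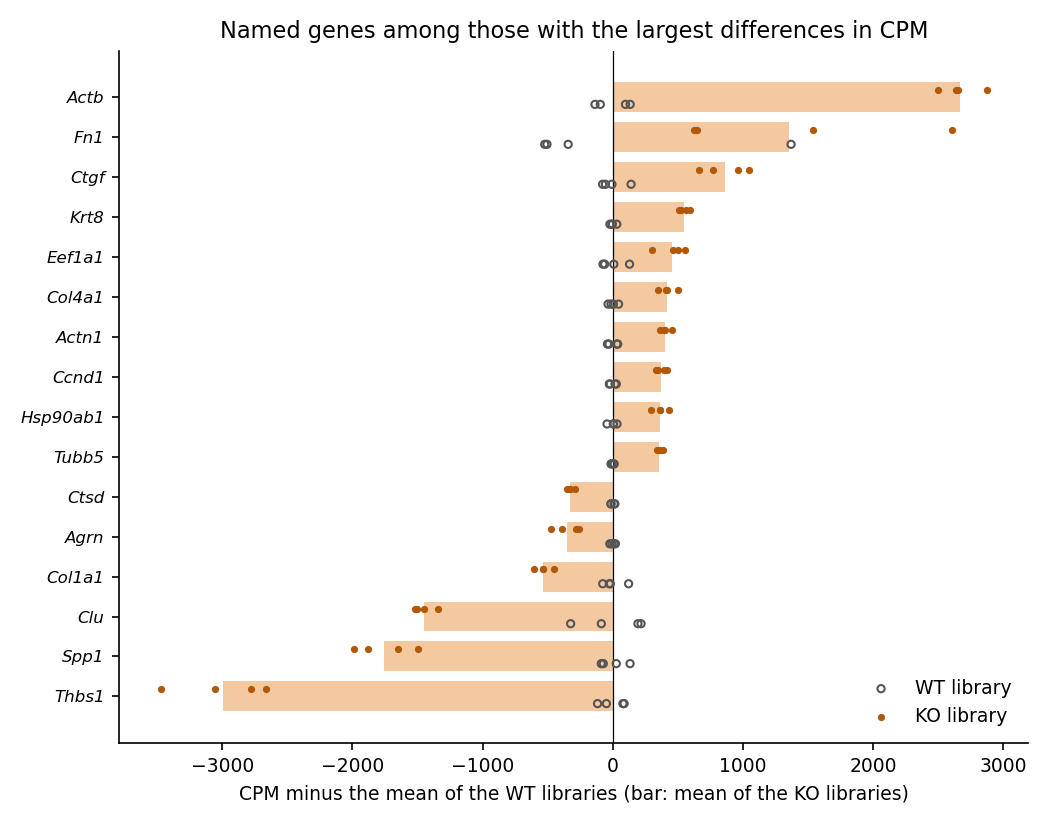
Difference in CPM between female KO and female WT (x axis) for 16 genes named in the text that are among the 15 called genes with the largest gain or the 15 with the largest loss, one per row. Each point is a KO library minus the mean of the WT libraries, the bar is the mean over the 4 KO libraries, and WT libraries minus their own mean are drawn as open points.

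Called genes of actin, tubulin and keratin were mostly higher. Serum response factor and its partners drive actin and its binding proteins when filaments assemble. Of 46 genes of this kind, 34 rose and 3 fell (median 0.21). Tpm2, a tropomyosin, went from 198 ± 6.70 to 300.3 ± 13.9 CPM and Tgfb1i1, a focal adhesion adaptor, from 70.2 ± 4.91 to 102 ± 5.77 CPM. The smooth muscle genes Actg2 and Cnn1 fell by 0.93 ± 0.076 and 0.25 ± 0.046. The smooth muscle marker Acta2 was higher, at 1614.7 to 1643.8 CPM in WT libraries and 1678.5 to 1929.4 CPM in KO libraries. A list of smooth muscle and pericyte genes had 3 higher and 5 lower of 13 (median -0.02). Reads of the actin genes can be shared between copies, so their separate values are uncertain. Of 16 tubulin genes 10 rose and 0 fell. Tubb5 went from 807 ± 10.5 to 1166 ± 19.2 CPM, Tubb6 from 185 ± 7.15 to 288 ± 13.6 CPM and Tuba1a, which is nearly identical to Tuba1b, from 338 ± 8.41 to 509.8 ± 14.9 CPM. Keratins had 8 higher and 0 lower of 12. The epithelial pair Krt8 and Krt18 rose by 0.44 ± 0.024 and 0.36 ± 0.025, and Krt20 was at 28, 27.1, 28.5 and 26.5 CPM in WT libraries 1 to 4 and 56.8, 52.3, 57.1 and 54.7 CPM in KO libraries 1 to 4. The Krt20 libraries did not overlap, with a log2 fold change of 1.01 ± 0.046. The cilium went the other way, with 1 higher (2 without KO library 1 and 0 without any 1 of the other libraries but WT library 4) and 17 lower of 43 genes (median -0.14). Pkhd1, whose loss gives recessive polycystic kidney disease, was at 319, 318, 296 and 284 CPM in WT libraries 1 to 4 and 147, 172, 182 and 192 CPM in KO libraries 1 to 4. The KO values all lay below the WT values (log2 fold change -0.81 ± 0.083). Bbs1 and Bbs2, parts of the complex that carries cargo into cilia, fell by 0.51 ± 0.083 and 0.45 ± 0.086, Ift122 by 0.35 ± 0.043, and Pkd1 was the gene that rose, by 0.11 ± 0.043. The Pkd1 call was lost under all scalings and tools tried other than TMM with edgeR, with either other filter, and without any 1 library other than WT library 4 or KO library 1.

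Cell adhesion and matrix genes went both ways. Integrins, the receptors for matrix, had 12 higher and 3 lower of 23. The collagen receptor chain Itga2 rose from 37.9 ± 2.30 to 74.6 ± 5.02 CPM, the laminin receptor chain Itga3 from 1306 ± 29.5 to 1637 ± 28.4 CPM and Itgav from 595 ± 19.8 to 798 ± 49.2 CPM, while Itga1, another collagen receptor chain, fell by 0.43 ± 0.049, and the common partner Itgb1 was not called (-0.01 ± 0.024). In the basement membrane, Lama3, a laminin chain that epithelia lay down when they spread, rose from 157 ± 2.13 to 268 ± 8.22 CPM. The chains Col4a1 and Col4a2 of type IV collagen rose by 0.52 ± 0.037 and 0.49 ± 0.029, and Col4a3 and Col4a4, which form the mature glomerular network, fell by 0.32 ± 0.042 and 0.24 ± 0.031. Fibrillar and other collagens had 4 higher and 14 lower of 31. Col1a1 fell by 0.46 ± 0.041 and Col8a1, a collagen of vessels and activated mesenchyme, by 0.85 ± 0.039. Matricellular and elastic fibre genes had 7 higher and 19 lower of 38. At cell junctions, the desmosomal plaque gene Pkp1 rose from 36.7 ± 2.40 to 70.6 ± 2.34 CPM and P-cadherin (Cdh3) fell from 258 ± 5.92 to 179 ± 8.77 CPM, while E-cadherin (Cdh1) was not called (0.05 ± 0.023). Claudin 4 (Cldn4) and claudin 1 (Cldn1) rose by 0.12 ± 0.023 and 0.28 ± 0.042. Claudin 8 (Cldn8), a barrier protein of the collecting duct, fell from 8.22 ± 0.183 to 1.63 ± 0.355 CPM.

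Called immediate early genes were mostly higher, while lists of growth factors and their receptors went both ways. Immediate early genes had 15 higher and 2 lower of 25 (1 lower without WT library 4 or KO library 3 and 4 without KO library 1), with Fosl1, a partner of Jun, at 11 ± 1.06 to 17.9 ± 1.13 CPM and Ier3 at 176 ± 6.54 to 255 ± 6.75 CPM. Feedback genes of the MAP kinase pathway had 11 higher and 1 lower of 24: the phosphatase gene Dusp5, Spry4 and Phlda1 rose by 0.75 ± 0.046, 0.73 ± 0.066 and 0.82 ± 0.055, and Spry1 fell by 0.21 ± 0.034. The EGF receptor family with its ligands had 5 higher and 5 lower of 19 (median -0.01). Among its ligands, amphiregulin (Areg) rose from 1.51 ± 0.170 to 3.34 ± 0.524 CPM, epiregulin (Ereg) from 2.59 ± 0.255 to 4.31 ± 0.405 CPM and Hbegf from 326 ± 9.27 to 406 ± 5.58 CPM, and the receptor gene Egfr rose by 0.28 ± 0.034. The ligand betacellulin (Btc) fell from 4.72 ± 0.463 to 3.44 ± 0.316 CPM, the receptor gene Erbb2 by 0.16 ± 0.033 and Lrig3, of a family that binds these receptors, by 0.43 ± 0.041. The FGF list had 5 higher and 8 lower of 20, the IGF and insulin list 9 higher and 7 lower of 31 (8 and 12 with library size as the scaling), and the list of PDGF, VEGF and HGF 7 higher and 7 lower of 22. Vegfc, a growth factor of lymphatic vessels, rose from 11.6 ± 0.692 to 20.6 ± 0.742 CPM. Insulin-like growth factor 1 (Igf1) was at 53.7, 51.2, 57.0 and 56.3 CPM in WT libraries 1 to 4 and 30.9, 29.1, 29.2 and 31.6 CPM in KO libraries 1 to 4. It was lower in each KO library than in any WT library (log2 fold change -0.86 ± 0.050), and the adaptor gene Irs2 fell by 0.53 ± 0.050. In the Wnt list 6 genes rose and 19 fell of 51, with the secreted inhibitor Sfrp1 falling from 7.0 ± 0.879 to 3.40 ± 0.157 CPM. Of the TGF beta and BMP genes 11 rose and 16 fell of 51. Bmp7, which maintains nephron progenitors, fell from 69.0 ± 3.89 to 37.6 ± 1.94 CPM, and Grem1, which binds and blocks BMPs, rose from 14.2 ± 1.95 to 30.6 ± 2.0 CPM. Guidance genes had 12 higher and 23 lower of 60, with Sema6a rising by 0.73 ± 0.051 and Ephb6 falling by 0.93 ± 0.070. Among targets of YAP and TEAD, 12 rose and 10 fell of 35. Cyr61 rose by 0.28 ± 0.024, and the kinase gene Nuak2 and the angiomotin gene Amotl2 fell by 0.58 ± 0.030 and 0.35 ± 0.025.

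Receptors for hormones and fibroblast growth factors were also measured. Klotho (Kl), the kidney co-receptor for the phosphate hormone FGF23, was at 8.36, 9.26, 7.72 and 7.18 CPM in WT libraries 1 to 4 and 1.31, 1.70, 2.73 and 2.57 CPM in KO libraries 1 to 4. Each KO value lay below every WT value, as the choice of the strongest decreases required. The log2 fold change was -1.93 ± 0.14 (edgeR adjusted p = 4.29e-13). The receptor chains differed: Fgfr1 rose by 0.18 ± 0.034, and Fgfr2, the receptor of epithelia for FGF7 and FGF10, fell by 0.94 ± 0.052. Fgf7 itself, a growth factor of mesenchyme, rose by 0.95 ± 0.12. The calcium-sensing receptor gene Casr fell by 1.06 ± 0.19. Nuclear receptors had 3 higher and 10 lower of 33 (median -0.13), with the oestrogen receptor gene Esr1 falling by 0.68 ± 0.14. Of the insulin-like growth factor genes, the binding protein gene Igfbp3 fell by 0.66 ± 0.073.

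Called genes of the NF-kB, chemokine and interleukin lists were mostly higher. Of 38 genes of the NF-kB pathway and its targets, 24 rose and 4 fell (median 0.27). Cyclooxygenase 2 (Ptgs2) was at 117, 114, 140.4 and 139 CPM in WT libraries 1 to 4 and 234, 253, 243 and 253 CPM in KO libraries 1 to 4. The WT and KO libraries did not overlap, with a log2 fold change of 0.94 ± 0.084 (edgeR adjusted p = 1.89e-06). The granulocyte factor gene Csf3 rose from 7.30 ± 0.786 to 15.5 ± 2.34 CPM, the adhesion gene Icam1 from 15.8 ± 1.44 to 33.6 ± 1.71 CPM and the chemokine gene Cxcl16 from 86.2 ± 2.33 to 125 ± 3.61 CPM. In the complement and coagulation list 10 rose and 6 fell of 31, with C3 falling by 0.45 ± 0.077. The transcription factor gene Cebpd fell by 0.95 ± 0.12 and Nfkbiz, a regulator of NF-kB, by 0.39 ± 0.039. Interferon response genes had 8 higher and 4 lower of 39, a share of higher genes near that of all tested genes. The neighbouring genes Ifit3 and Ifit3b, which are similar in sequence, had log2 fold changes of -1.11 ± 0.077 and -1.19 ± 0.12. Antigen presentation genes had 7 higher and 0 lower of 19, with B2m, the light chain of class I molecules, rising from 160.2 ± 3.70 to 194 ± 7.21 CPM.

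Chemokines had 9 higher and 2 lower (1 without WT library 1 or KO library 2) of 17 (median 0.53), and interleukins with their receptors 15 higher and 3 lower (1 without KO library 2) of 33. Ccl2, which draws monocytes, was at 2.23, 1.97, 2.34 and 1.75 CPM in WT libraries 1 to 4 and 5.14, 4.74, 5.77 and 4.73 CPM in KO libraries 1 to 4. The KO libraries stood above all WT libraries, as the choice of the strongest increases required (log2 fold change 1.31 ± 0.14, edgeR adjusted p = 1.60e-09). Cxcl1, which draws neutrophils, rose by 0.88 ± 0.14 and Cxcl10, an interferon-induced chemokine, by 1.60 ± 0.12. Unfolded protein response genes had 7 higher and 7 lower of 33, and the chaperone gene Hspa5 (BiP) was not called (-0.05 ± 0.024), but was called lower with library size as the scaling and without KO library 1. Hypoxia genes had 6 higher and 7 lower of 30: the glucose carrier gene Slc2a1 rose by 0.27 ± 0.028 and the kinase gene Pdk1 fell by 0.46 ± 0.091. Targets of ATF4, a factor of amino acid shortage, had 13 higher and 7 lower of 32. Circadian clock genes had 3 higher and 5 lower of 21. In RNA polymerase II and mediator 3 rose (6 without KO library 4) and 3 fell of 49, below the shares of all tested genes.

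Tubule genes did not move as one. In the brush border list 5 rose and 5 fell of 22: the scaffold gene Ush1c and Pdzk1ip1 fell by 0.38 ± 0.080 and 0.45 ± 0.050, and the linker ezrin (Ezr) rose by 0.19 ± 0.028. Of 22 solute carriers of the proximal tubule with enough counts, out of 54 listed, 4 rose (2 with the stricter filter) and 2 fell. Summed, the listed genes were at 709 to 732 CPM in WT and 754 to 791 CPM in KO. Kcnj16, a potassium channel of the tubule, fell from 44.6 ± 3.64 to 25.2 ± 2.38 CPM. Apical endocytosis had 9 higher and 8 lower of 39. The brush border and endocytosis counts lay near the shares of all tested genes. The clathrin adaptor subunit Ap2a2 rose by 0.20 ± 0.026 while the receptor Lrp2 and its adaptor Dab2 fell by 0.68 ± 0.074 and 0.65 ± 0.039. In the mineral list, the calcium channel gene Trpv6 fell from 4.69 ± 0.416 to 1.37 ± 0.395 CPM and the sodium-phosphate carriers Slc20a1 and Slc20a2, which most cells use, rose by 0.22 ± 0.032 and 0.18 ± 0.034. Nephron transcription factors had 8 higher and 19 lower of 46 (median -0.13). Lhx1, which acts in the growing nephron, was at 39.5, 36.1, 36.7 and 35.2 CPM in WT libraries 1 to 4 and 19.7, 20.2, 21.3 and 19.1 CPM in KO libraries 1 to 4. No KO library reached the lowest WT value (log2 fold change -0.87 ± 0.057). Gata3 of the collecting duct fell by 0.62 ± 0.062 and Tfcp2l1, a factor of the distal nephron, rose by 0.35 ± 0.057. HOX genes, which mark position along the body, had 2 higher (4 without KO library 4) and 15 lower of 32, with Hoxb8 falling from 128 ± 3.57 to 94.6 ± 4.12 CPM and Hoxd8 from 45.1 ± 2.98 to 32.9 ± 2.06 CPM. Hoxc10 and Hoxc4 were those that rose (0.21 ± 0.049 and 0.59 ± 0.12).

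Called genes of lysosomes and vesicle traffic were mostly lower. Of 51 lysosomal genes 4 rose and 25 fell, with a median log2 fold change of -0.08, and their share of counts was 0.806 ± 0.00825% in WT and 0.721 ± 0.0127% in KO. Hexa, a hydrolase of gangliosides, was at 46.6, 44.4, 42.9 and 41.7 CPM in WT libraries 1 to 4 and 34.4, 35.1, 33.2 and 32.5 CPM in KO libraries 1 to 4, with every KO library below every WT library (log2 fold change -0.38 ± 0.049). Cathepsin F (Ctsf), Cln3 and Naglu fell by 0.53 ± 0.074, 0.37 ± 0.064 and 0.35 ± 0.044, and the membrane protein gene Lamp1 was not called (0.01 ± 0.024). The proton pump that acidifies lysosomes had 1 higher (0 without WT library 2 or 3 or KO library 1 or 3) and 6 lower of 16 subunits, with Atp6v1a falling by 0.19 ± 0.029. Autophagy genes had 3 higher (1 without WT library 2 or 3) and 9 lower of 31: Gabarapl1 and Map1lc3a fell by 0.23 ± 0.031 and 0.31 ± 0.063, and the cargo receptor Sqstm1 rose by 0.22 ± 0.029. Of 50 Rab GTPases, which direct vesicle traffic, 4 rose and 16 fell, with the abundant Rab10 falling by 0.17 ± 0.027. In iron handling, the transferrin receptor Tfrc rose from 43.6 ± 0.354 to 70.4 ± 4.56 CPM and the iron exporter Slc40a1 was at 55.9, 57.2, 52.7 and 49.1 CPM in WT libraries 1 to 4 and 31.3, 32.4, 33.9 and 34.6 CPM in KO libraries 1 to 4. The exporter fell in every KO library below the WT range (log2 fold change -0.70 ± 0.050). Of 43 glutathione and NRF2 genes 17 rose and 7 fell: the plasma peroxidase Gpx3 of the proximal tubule fell from 195 ± 11.3 to 125 ± 1.87 CPM, and heme oxygenase (Hmox1) rose by 0.47 ± 0.039. Zinc finger genes of the Zfp series had 12 higher and 72 lower of 332, and 109 were lower with library size as the scaling.

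Markers of other cell types were counted beside these lists. In bulk RNA, fewer cells of a type and less RNA per cell cannot be told apart. Of 12 principal cell genes of the collecting duct, 1 rose and 7 fell (median -0.71). The sum of the listed genes did not fall, at 1492 to 1545 CPM in WT and 1547 to 1582 CPM in KO. As a share of counts it overlapped, at 0.151 to 0.157% in WT and 0.152 to 0.157% in KO. Such a sum follows the most abundant members and does not show what most members did. The channel gene Scnn1a was at 48.8, 47.9, 40.9 and 41.9 CPM in WT libraries 1 to 4 and 18.8, 18.6, 20.8 and 23.7 CPM in KO libraries 1 to 4. Its libraries did not overlap (log2 fold change -1.12 ± 0.093), and Aqp2, the defining water channel, was at 0 in all 8 libraries. Distal convoluted tubule genes had 2 higher and 4 lower of 8 (2 lower without WT library 2 or 4 or KO library 3 or 4). Their sum was higher in KO, at 687 to 701 CPM in WT and 724 to 775 CPM in KO. Slc12a3, a defining gene, was at 0.635 CPM or less in every library. Thick ascending limb genes had 0 higher and 3 lower of 11, with Umod at 0.963 CPM or less in every library. Those genes summed to 45.0 to 51.6 CPM in WT and 42.2 to 44.8 CPM in KO. Of 15 fibroblast genes 3 rose and 7 fell. Summed, they were between 5961 and 6333 CPM in WT and between 4581 and 4927 CPM in KO, and Dcn, a defining gene, was at 0.628 CPM or less in every library. Pdgfra, another defining gene, went the other way from the sum, at 2.98 to 4.31 CPM in WT libraries and 4.45 to 5.13 CPM in KO libraries. Of 21 myeloid genes 12 rose and 0 fell (median 0.55), with a sum between 56 and 67.1 CPM in WT and between 75.2 and 96.0 CPM in KO. The macrophage receptor Csf1r was not called (-0.13 ± 0.081). Podocyte genes had 5 higher and 5 lower of 16, and endothelial genes 4 higher and 1 lower of 20. Their part in the changes of the matrix, inflammation and tubule lists was not tested.

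The same contrast in the male pools was set beside these results, with separate libraries on both sides. In male cells 10.2% of the same 13399 genes were called higher in KO and 10% lower. The effect of the genotype differed between the female and the male pools at 2106 genes (15.7%, edgeR test of the interaction), with the female effect above the male one at 1322 of them and below at 784. Mitotic kinase and cyclin genes had the same direction in both but a larger rise in female cells: their median log2 fold change was 0.79 in female and 0.37 in male cells, and the interaction was called for 21 members with the female effect above and 1 below. For cytosolic ribosomal proteins the medians were 0.15 and 0.14, with 0 of 77 called for a difference by edgeR (3 at an unadjusted p below 0.05, 0 by DESeq2 and 1 by limma-voom). Keratins had 8 higher in female and 7 in male cells, and cholesterol enzymes 16 and 15. The sizes of these effects were not all equal. The medians were 0.45 in female and 0.38 in male cells for keratins, and 0.39 and 0.26 for cholesterol enzymes. The interaction was called for 3 of 12 keratins with the female effect above and 0 below, and for 5 of 19 cholesterol enzymes above and 1 below. Endothelial genes had 18 of 20 lower in male KO, and the interaction was called for 15, all with the female effect above. Cdh5, which joins endothelial cells, had a log2 fold change of 0.05 ± 0.10 in female and -1.62 ± 0.10 in male cells, a difference of 1.68 ± 0.15. For Esm1, a secreted proteoglycan of endothelium, the values were 0.56 ± 0.10 and -1.18 ± 0.097 (difference 1.74 ± 0.14). The type IV collagen gene Col4a1 rose in female KO and fell in male KO (0.52 ± 0.037 and -0.23 ± 0.039, difference 0.75 ± 0.054). In the other direction, Flrt3, an adhesion protein that binds FGF receptors, had -1.09 ± 0.081 in female and 0.02 ± 0.094 in male cells (difference -1.11 ± 0.12), and Erbb4 -1.59 ± 0.16 and -0.51 ± 0.17 (difference -1.08 ± 0.24). Ifit3 had -1.11 ± 0.077 and 0.01 ± 0.099, a difference of -1.12 ± 0.13. Apart from Col4a1, these genes were chosen for large differences among those called in this test.

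**Figure D5:**
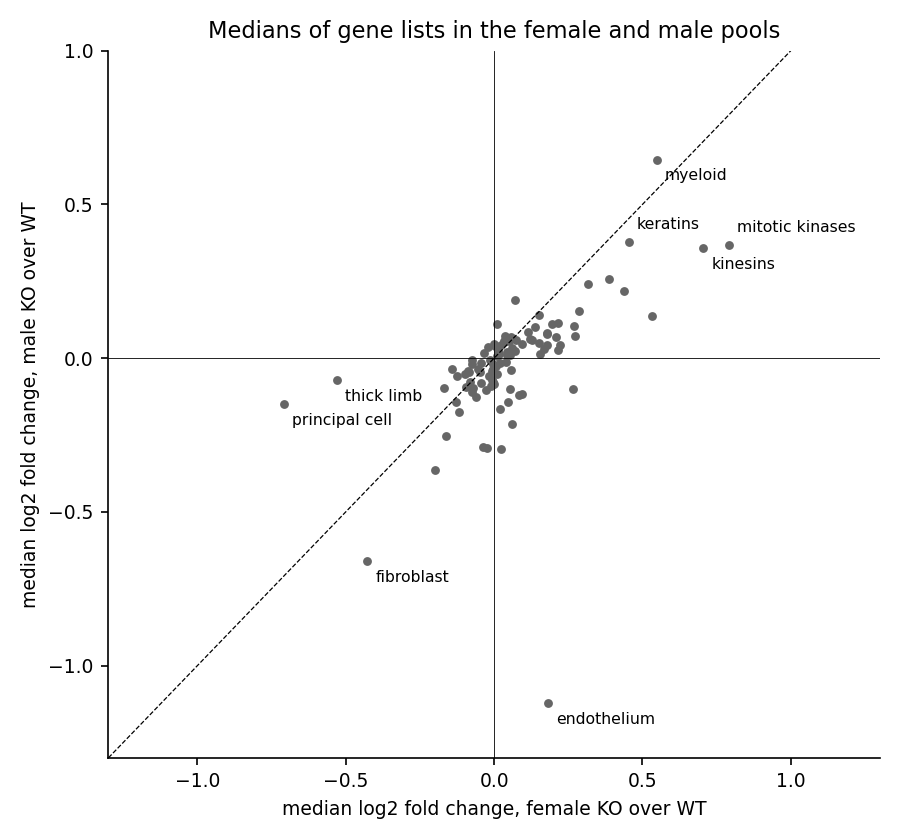
Median log2 fold change of KO over WT in the female pools (x axis) against that in the male pools (y axis) for 99 gene lists with at least 10 tested members, with the line of equal medians dashed. Lists of cell division lie at the right and above zero but below the line, and the endothelial list lies far below zero on the y axis while near 0.18 on the x axis.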

How the data were processed

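RNA-seq was made from 15 libraries (male WT 4, male KO 3, female WT 4, female KO 4) with a strand-specific mRNA kit, per the labels' protocols. The deposited values used are raw counts per gene symbol. Per the submitters' processing notes the authors used STAR 2.6.1 and featureCounts on mm10, as well as edgeR 3.26.8 and limma 3.40.6. Which annotation was counted, and whether by strand, is not given in the sources used here, so reads of overlapping or antisense genes cannot be told apart. The authors' CPM table was not used. Malrd1 and mitochondrial genes were not analysed here.

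Genes with a count of 10 or more in enough libraries (edgeR filterByExpr, total at least 15) were kept: 13912, of which 13399 are autosomal by GENCODE M21. Counts were scaled by TMM and fitted with edgeR 4.0.16 (R 4.3.3), robust quasi-likelihood, with the 4 group means over all 15 libraries. p-values were adjusted by the Benjamini-Hochberg method over all tested genes, and a gene was called, and written as risen or fallen, below 0.05. CPM values use the scaled library sizes. Standard errors are the size of the log2 fold change divided by the square root of F. Alternatives were other scalings, filters and tests (limma 3.58.1, DESeq2 1.42.0), a replicate block, the female libraries alone and leaving out each female library. The fit was tested on simulated counts.

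Named autosomal genes were the 20 strongest increases and 20 strongest decreases at 5 CPM or more without overlap of libraries, the 40 most abundant, the 15 largest gains and 15 largest losses in CPM, and the 15 best-resolved shifts under 1.2-fold in each direction. The rule added the 10 largest differences between pools in each direction and, for each of 108 gene lists, up to 4 called members in each direction and the 3 most abundant (all members of lists with at most 12 tested). Only part of these are printed, and some genes are not reported here. Aurka, Cdc20 and Cubn were chosen outside the rule after their values were seen. The comparison and the lists were chosen with earlier results of these data known. Promoter windows are RefSeq sequences. Counting floors cover counting error only.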

Additional observations from a re-analysis of the deposited data

Results flagged for a closer look

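Of 484 sets of 4 libraries of a group (1 set for each of 242 named genes and each female group), 23 held a library that lay apart from the other 3 by more than the 95% limit of Dixon's test, or 4.75%, where chance gives about 5%. Female KO library 1 stood apart for Btc, at 2.97 CPM against 3.60 to 3.60 CPM, Cars, at 147 CPM against 136 to 137 CPM and Sema6a, at 147 CPM against 171 to 174 CPM in the other 3 libraries. Female KO library 1 stood apart also for Tfrc, at 63.6 CPM against 71.9 to 73.3 CPM and Zwint, at 156 CPM against 161 to 162 CPM in the other 3 libraries. Female KO library 2 stood apart for Cldn8, at 1.1 CPM against 1.77 to 1.85 CPM, Eif4a2, at 229 CPM against 239 to 240.4 CPM and Kif18b, at 17.8 CPM against 17.3 to 17.4 CPM in the other 3 libraries. Female KO library 2 stood apart also for Thbs2, at 16.3 CPM against 20.2 to 20.6 CPM in the other 3 libraries. Female KO library 3 stood apart for Fgfr2, at 31.6 CPM against 27.1 to 27.8 CPM in the other 3 libraries. Female KO library 4 stood apart for E2f7, at 10.3 CPM against 11.8 to 12 CPM, Ier3, at 265 CPM against 251 to 252 CPM and Nfkbiz, at 110.1 CPM against 99.9 to 100.2 CPM in the other 3 libraries. Female WT library 1 stood apart for Ltbp1, at 353 CPM against 329 to 331 CPM in the other 3 libraries. Female WT library 2 stood apart for Actr3, at 279 CPM against 286 to 287 CPM, Esm1, at 6.01 CPM against 7.60 to 7.86 CPM and Tfcp2l1, at 104 CPM against 97.1 to 97.8 CPM in the other 3 libraries. Female WT library 3 stood apart for Exo1, at 5.42 CPM against 3.95 to 4.16 CPM, Podxl, at 117 CPM against 108 to 109 CPM and Ush1c, at 11.6 CPM against 14.2 to 14.6 CPM in the other 3 libraries. Female WT library 4 stood apart for Elovl6, at 41.8 CPM against 35.3 to 36.2 CPM, Ephb6, at 19.3 CPM against 21.9 to 22 CPM and Fn1, at 27296 CPM against 25403 to 25583 CPM in the other 3 libraries. KO library 1 held 5 of the 23, and each of the other libraries held between 1 and 4.

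The effect of the genotype differed between the female and male pools, by the edgeR test of the interaction, for the 6 genes named for it. For Cdh5, Esm1, Erbb4, Flrt3 and Ifit3 the choice required this, as they were taken from genes called in that test. Female minus male, the log2 difference was 1.677 for Cdh5, 1.745 for Esm1 and 0.7547 for Col4a1. It was -1.082 for Erbb4, -1.106 for Flrt3 and -1.12 for Ifit3.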

How the results depend on the processing

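Direction and balance depended on the scaling, and the number of calls on the null. With the reported settings 2814 autosomal genes rose and 2464 fell in KO. The counts were 2232 and 3287 with library size as the only scaling, and between 2393 and 2777 higher and between 2308 and 2660 lower with the other scalings, filters, tools and the fit of the female libraries alone. Leaving out each female library in turn gave 2486 to 2632 higher and 2191 to 2406 lower. Against a null of a 1.5-fold change (edgeR glmTreat), 140 were higher and 117 lower, by the construction of that test. Of genes changed at least 2-fold, 134 were higher and 140 lower, and 35 and 43 among the fewer genes that a filter of at least 5 CPM in 3 libraries kept. Leaving out libraries gave 125 to 144 and 134 to 155. The effect differed between the female and male pools at 2106 genes, at 1831 to 2067 without a female library and at 1896 to 2282 with the other scalings, filters and tools.

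Deviations of same-numbered WT and KO libraries correlated only weakly, at 0.022, -0.009, 0.039 and 0.043, but 3 of the 4 correlated best with their own number. Pairing by replicate number can therefore not be excluded. With the replicate number as a block, 3024 genes were higher and 2671 lower (137 and 139 at least 2-fold), and 2406 differed between the pools.

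For 242 of the genes named with values, 4202 alternative values were computed, and 4159 kept direction and side of the threshold. In 30, over 4 genes (Fn1, Pkd1, Gpbar1 and Zwint), a call was lost, and in 5, over Cdkn1a and Hspa5, one was gained. Direction changed in 8, over 4 genes that were not called. With library size scaling Cubn was at -0.014, Fasn at -0.0014 and Lamp1 at -0.023. Leaving out each library gave -0.0414 to 0.109 for Cdh5, -0.0885 to 0.123 for Cubn and -0.00206 to 0.028 for Lamp1. The cause of these changes was not tested. A few genes named by the rule were left out of the text after their calls were seen to be lost under an alternative, so these counts understate such losses.

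Among 77 of the gene lists counted, 39 had a count that moved by over 1.5 times under an alternative, changes from or to 0 included. In 26 of the 39 a count of 3 or more did so. Lists moved in 17 cases with the stricter filter, 17 with library size scaling, 7 with DESeq2 and 24 without a library. With library size scaling, 13 chromatin modifiers and 3 unfolded protein response genes were higher. In the 13 lists with 0 members in a direction by edgeR, at most 1 member passed an unadjusted p below 0.05 in that direction, and 0 passed by DESeq2 and by limma-voom. In the mitotic kinase, cytosolic ribosomal protein and proteasome lists, 1 member was called lower under some of the other alternatives. Precision is limited by depth for genes in the lowest of 10 classes by CPM, where the median standard error was 0.34 on the log2 scale.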
